A study of Homo sapiens with 16 samples.

Results

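The comparison described here set 4 libraries of SW620 cells carrying dnLEF1 against 4 libraries of SW620 cells carrying GFP, 8 of the 16 libraries of the series. The 8 were chosen by their titles, and every gene was described. SW620 is a colon carcinoma line grown from a lymph node metastasis, and its sister line SW480 came from the primary tumour of the same person. GFP marks the mock cells, and dnLEF1 is a form of the transcription factor LEF1 without the part that binds beta-catenin. All cells were at passage 6, were grown in DMEM and were collected with trypsin, and the RNA sequenced was polyadenylated. The labels used here do not say which promoter drives the construct, whether the cells are 1 clone or a pool, or whether each of the 4 libraries of a group had a culture of its own. So a p-value here rests on the spread among these 8 libraries, which may be technical.

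In Wnt signalling, a ligand at a Frizzled receptor stops the destruction of beta-catenin, which enters the nucleus and switches on genes to which a TCF or LEF1 factor is bound. In colon carcinoma the pathway is usually on without a ligand, because APC, a part of the destruction complex, is truncated. A LEF1 that cannot bind beta-catenin sits on such genes without activating them. Beta-catenin has a separate role at the cell membrane, where it links E-cadherin of adherens junctions to actin.

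Of 13336 genes tested with edgeR, 804 were higher and 324 lower with dnLEF1 at an adjusted p below 0.05. These are 6.03% and 2.43% of the genes tested, and 8.46% together. The change was at least 2-fold for 116 of the higher and 71 of the lower genes. The median log2 change of all tested genes was -0.0044. Counts assigned to genes ran from 17181204 to 26153506 per library. In GFP replicate 3, 39.4% of the reads aligned to several places, against 7.64% to 8.71% in the other 7 libraries. Those reads are not in the gene counts. Of 230 called genes followed one by one, 39 lost their call without that library, among them, of the genes named in the following text, WNT10A, CTNNB1, ZNRF3, PKP2, LLGL2, CLDN4, LAMC1, ZEB1, AXL, S100A4, SCG3, ENO2, DUSP5, HBEGF, EFNB2, SEMA6A, ROBO2, TIMP3, PSME1, PXDN, HEYL, TGFB2 and BMP5.

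**Figure D1:**
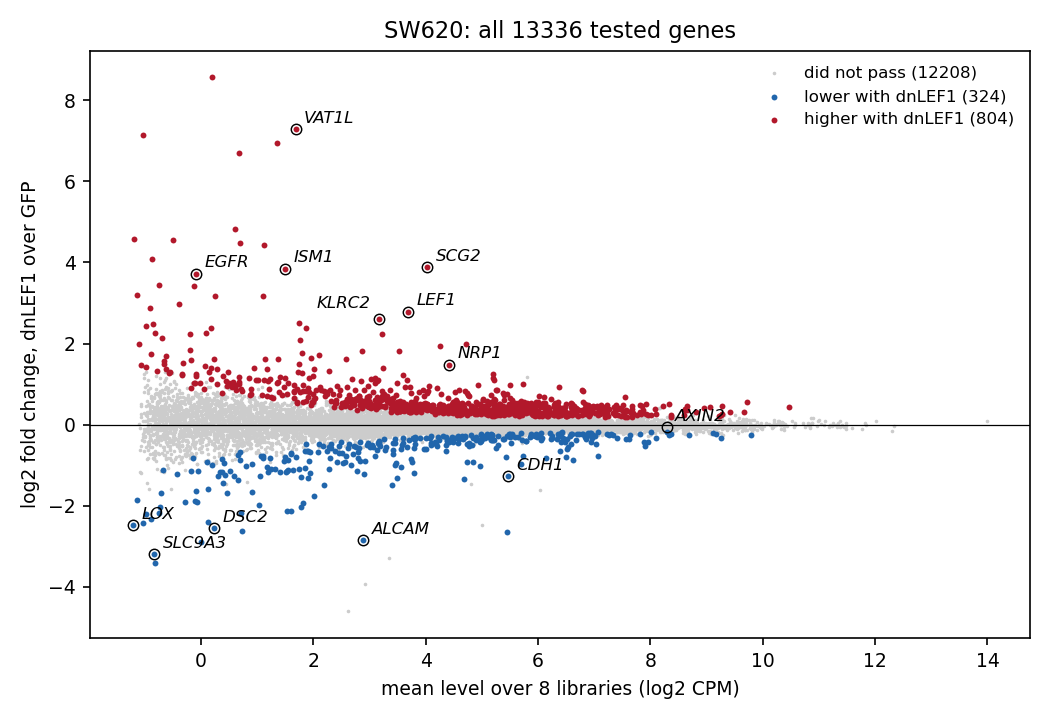
Each point is 1 of the 13336 tested genes, with its mean level over the 8 SW620 libraries (log2 CPM) on the horizontal axis and its log2 fold change, dnLEF1 over GFP, on the vertical axis; red and blue mark the 804 higher and 324 lower genes. LEF1 and SCG2 stand among the large rises, ALCAM and CDH1 among the falls, and AXIN2 lies close to 0 at a high level.

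The labelled cell type was checked against its markers. The 7 epithelial markers (EPCAM, KRT8, KRT18, KRT19, CDH1, VIL1 and CDX2) summed to between 9279 and 11906 CPM (counts scaled to the library, here to its total gene count and elsewhere to its TMM effective size) in GFP and between 8147 and 10273 CPM in dnLEF1, and each of the 7 reached 1 CPM. Markers of fibroblasts, leukocytes and endothelium were low. Fibroblast markers summed to 21.0 to 33.9 CPM in GFP and 27.9 to 31.6 in dnLEF1, leukocyte markers to 4.78 to 5.89 and 6.12 to 7.28, and endothelial markers to 2.70 to 3.47 and 2.88 to 3.59. LYZ, which intestinal epithelium also makes, was the leukocyte marker that rose. The sum of 12 neural markers was 235 to 259 CPM in GFP and 242 to 258 in dnLEF1, and only TUBB3 and SYT1 of them reached 1 CPM. Of 14 leukocyte, 10 endothelial and 12 fibroblast markers, 6, 3 and 3 had no count in any of the 8 libraries. Among these were PTPRC, CD3D, CD3E, CDH5, KDR, COL3A1, FAP and POSTN. In the same order, 2, 2 and 3 markers reached 1 CPM. In whole-culture RNA, fewer cells of a kind and less RNA per cell cannot be told apart.

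LEF1, the source of the construct, lies at chr4:108047548-108168932 (hg38). It stood at 3.47, 3.78, 2.72 and 2.97 CPM in the GFP libraries and at 24.6, 19.2, 22.3 and 23.3 CPM in the dnLEF1 libraries. The groups do not overlap, and the labels hold in each of the 8 libraries. The log2 change was 2.79 ± 0.12 (SE, edgeR adjusted p = 7.94e-09), a 6.90-fold rise. Whether a read came from the construct or from the cells' own LEF1 cannot be told apart in counts per gene.

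Of 40 known Wnt target genes tested, 10 were higher, 2 were lower and 28 did not pass, with a median log2 change of 0.08. Among all genes tested, 6.03% were higher and 2.43% lower. LEF1, the construct's own gene, is among the 10. AXIN2, a scaffold of the destruction complex that serves as a feedback gauge of the pathway, stood at 332, 323, 325 and 302 CPM in GFP and at 322, 299, 309 and 301 CPM in dnLEF1. The groups overlap, and the log2 change was -0.06 ± 0.05 (edgeR adjusted p = 0.607). NKD1, which binds Dishevelled, was at 2604 ± 207 CPM (SD, n = 4) in GFP and 2493 ± 276 in dnLEF1, and its log2 change was -0.06 ± 0.08. The stem cell receptor LGR5 was at 89.6 ± 3.73 and 95.0 ± 6.64 CPM (log2 0.09 ± 0.06). CCND1, which encodes cyclin D1, had a log2 value of 0.13 ± 0.06. The GFP and dnLEF1 libraries overlap for these 3 genes as well.

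The 2 Wnt targets that fell are both negative feedback genes. NKD2, a relative of NKD1, was at 69.0, 70.5, 76.1 and 84.8 CPM in GFP and at 53.6, 61.0, 58.4 and 59.3 in dnLEF1 (log2 -0.37 ± 0.07, edgeR adjusted p = 0.00452). ZNRF3, a ubiquitin ligase that removes Frizzled receptors, changed less (log2 -0.24 ± 0.06, edgeR adjusted p = 0.0281), and its call was lost when any 1 of GFP replicates 2, 3 and 4 or dnLEF1 replicates 1 and 2 was left out. With each of these left out, 1 fallen target was left in place of 2. The GFP and dnLEF1 libraries do not overlap for either gene.

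Among the 10 risen targets, APCDD1, a membrane inhibitor of Wnt signalling, was at 16.2 ± 1.10 CPM in GFP and 20.8 ± 1.26 in dnLEF1 (log2 0.36 ± 0.08). TNFRSF19, a receptor of the TNF family, rose by a log2 of 0.48 ± 0.11, and LRIG1, a brake on receptor tyrosine kinases found in intestinal stem cells, by 0.34 ± 0.06. EPHB4 (0.73 ± 0.09), KIAA1549 (0.33) and the hepatocyte growth factor receptor MET (0.52 ± 0.07) also rose, but lie in a part of chromosome 7 where most genes were higher, described below. ETS2, SLC12A2 and SMOC2 complete the 10.

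Set beside SW480, the same genes differ in size of change. In the fit of all 16 libraries, AXIN2 had a log2 change of -2.98 in SW480, and the change in SW620 was 2.92 ± 0.08 above it (edgeR interaction adjusted p = 1.02e-15). The difference was 3.11 ± 0.14 for NKD1, 3.62 ± 0.22 for LGR5, 1.19 ± 0.09 for CCND1 and 3.03 ± 0.11 for APCDD1. Of the 40 Wnt targets tested in SW620, 28 had an effect of dnLEF1 that differed between the lines. Over all 14926 genes of that fit the share was 28.5%. MYC was not among the 28, with a difference of -0.14 ± 0.10.

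**Figure D2:**
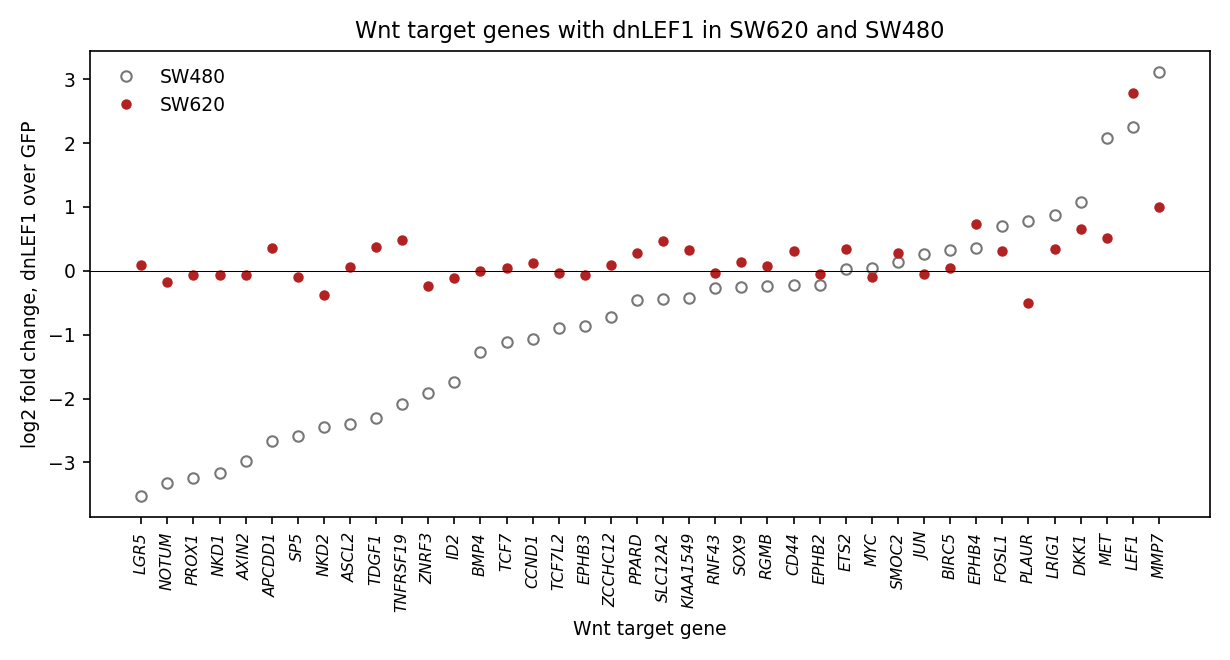
The log2 fold change, dnLEF1 over GFP, of each of the 40 Wnt target genes tested in SW620, ordered by its value in SW480 (open circles, from the 16-library fit), with SW620 as filled points. Most SW620 points, AXIN2 at -0.06 among them, lie near 0 where the SW480 points run from below -3 upward.

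The upstream Wnt genes changed one at a time. WNT11, a ligand mostly known from beta-catenin-independent signalling, was at 5.03, 4.26, 4.83 and 5.17 CPM in GFP and at 1.23, 1.18, 0.757 and 1.24 in dnLEF1. Every dnLEF1 library lay far below the GFP libraries (log2 -2.14 ± 0.18, edgeR adjusted p = 4.32e-06). Of 10 tested ligand and secretion genes, 2 rose (WLS and WNT6) and 2 fell (WNT11 and WNT10A), and the calls of WNT6 and WNT10A were each lost in 6 of the 8 fits that leave out 1 library (WNT6 without GFP replicate 1, 2 or 4 or dnLEF1 replicate 2, 3 or 4, WNT10A without replicate 1, 2 or 3 of either group). Of 19 receptors and inhibitors 1 rose, FZD10 (0.34), and 1 fell, FZD6 (-0.57 ± 0.12). Among all genes tested, 6.03% were higher and 2.43% lower. CTNNB1, which encodes beta-catenin, was at 594 ± 9.19 CPM in GFP and 517 ± 18.9 in dnLEF1 (log2 -0.20 ± 0.05, edgeR adjusted p = 0.0228). That call was lost without GFP replicate 2, 3 or 4 or dnLEF1 replicate 1. Of 19 tested TCF factors and co-regulators, edgeR called LEF1 alone, and DESeq2 called 2 higher.

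Of 21 tested genes of adherens junctions and desmosomes, 8 fell (CDH1, CDH17, CTNNB1, CTNND1, JUP, DSC2, PKP2 and PKP3), 1 rose (PERP) and 12 did not pass, with a median log2 change of -0.19. The share lower among all tested genes was 2.43%. With GFP replicate 2 or dnLEF1 replicate 1 left out, 5 of the 21 were called lower. The rise of PERP (0.20 ± 0.06) was lost in 7 of the 8 fits that leave out 1 library, all but that without GFP replicate 3.

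CDH1 encodes E-cadherin, the cadherin of epithelial adherens junctions, and lies at chr16:68737292-68835537. It was at 55.3, 65.0, 66.6 and 63.7 CPM in GFP and at 27.5, 23, 25 and 28.0 CPM in dnLEF1. Each dnLEF1 library was below 30 and each GFP library above 50 CPM, a 2.41-fold fall (log2 -1.27 ± 0.08, edgeR adjusted p = 2.13e-07). In SW480, CDH1 moved the other way, by 1.56 on the log2 scale, and the lines differed by -2.83 ± 0.18 (edgeR interaction adjusted p = 1.66e-10).

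JUP encodes plakoglobin, a relative of beta-catenin shared by adherens junctions and desmosomes. Its level was 100, 106, 100 and 105 CPM in GFP and 60.5, 67.4, 64.7 and 69.7 CPM in dnLEF1, with a narrow spread on both sides (log2 -0.65 ± 0.06, edgeR adjusted p = 7.86e-06). DSC2, the desmosomal cadherin desmocollin 2, fell 5.89-fold from a low level, 1.56, 2.22, 2.11 and 1.64 CPM in GFP against 0.285, 0.353, 0.151 and 0.481 in dnLEF1. CTNND1, the p120 catenin that holds cadherins at the membrane, was at 5.75 ± 0.222 and 3.91 ± 0.688 CPM, and its call (adjusted p = 0.0233) was lost in 5 of the 8 fits without 1 library (those without GFP replicate 2 or 4 or dnLEF1 replicate 1, 2 or 4). The plakophilins, desmosomal plaque proteins, fell by less, PKP3 with a log2 change of -0.36 ± 0.07 and PKP2 of -0.23 ± 0.06. PKP2 lost its call without GFP replicate 2 or 3 or dnLEF1 replicate 1 or 4.

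Promoters of 4 fallen genes are printed to show one sequence feature among them. The hexamer CACCTG, an E-box that ZEB and SNAIL repressors can bind, was sought on both strands, and matches are in capitals (CAGGTG is the match on the other strand). Each window runs from 250 bases before to 50 after the start of the gene, 5′ to 3′ along the gene, from RefSeq on GRCh38.p14. ALCAM, a cell adhesion molecule whose large fall is described further on, is at chr3:105366659-105366958 (plus strand), JUP at chr17:41786662-41786961 (minus), DSC2 at chr18:31102372-31102671 (minus) and LAMB3 at chr1:209652376-209652675 (minus).
ALCAM: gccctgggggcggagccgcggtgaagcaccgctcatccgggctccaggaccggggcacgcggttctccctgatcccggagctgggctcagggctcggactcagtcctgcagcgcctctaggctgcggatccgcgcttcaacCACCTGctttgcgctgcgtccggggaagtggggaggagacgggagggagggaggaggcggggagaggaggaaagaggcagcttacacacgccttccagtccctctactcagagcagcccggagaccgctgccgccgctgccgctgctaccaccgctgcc
DSC2: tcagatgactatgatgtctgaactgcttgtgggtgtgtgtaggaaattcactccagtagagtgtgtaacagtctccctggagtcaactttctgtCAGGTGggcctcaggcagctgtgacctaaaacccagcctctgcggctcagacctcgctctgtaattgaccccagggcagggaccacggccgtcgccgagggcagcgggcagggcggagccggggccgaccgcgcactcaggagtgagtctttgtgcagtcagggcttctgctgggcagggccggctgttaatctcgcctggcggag
LAMB3: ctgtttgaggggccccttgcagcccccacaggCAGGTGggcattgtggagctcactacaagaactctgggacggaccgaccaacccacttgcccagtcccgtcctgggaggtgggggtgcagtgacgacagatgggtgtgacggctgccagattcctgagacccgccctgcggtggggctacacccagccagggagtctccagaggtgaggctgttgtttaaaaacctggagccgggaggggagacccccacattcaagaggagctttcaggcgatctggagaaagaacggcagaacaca
JUP: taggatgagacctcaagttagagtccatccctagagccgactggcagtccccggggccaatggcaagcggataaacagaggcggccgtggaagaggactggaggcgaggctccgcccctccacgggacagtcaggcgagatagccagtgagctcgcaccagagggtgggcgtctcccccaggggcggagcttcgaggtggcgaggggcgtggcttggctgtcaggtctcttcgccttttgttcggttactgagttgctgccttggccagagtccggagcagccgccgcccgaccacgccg

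A match is present in the windows of ALCAM, DSC2 and LAMB3 and absent from that of JUP. These windows were not chosen by a stated rule and do not stand for the fallen genes. Among other large falls, FGD5 and PRSS2 hold a match, and CAPN6, NTRK2, HKDC1, RIN3 and TC2N hold none. Of 27305 promoters of this length, 20.6% hold the hexamer. Promoters were matched for 10400 tested genes, of which 19% hold it, against 28.3% of 240 genes called lower and 21.0% of 628 called higher. A TCF site, read as CTTTGAT or CTTTGAA on either strand, was in 3.84% of the promoters of tested genes, 4.62% of those called higher and 2.08% of those called lower. These shares describe letters in short windows, and binding was not measured.

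Tight junction genes split by place on the chromosomes. Of 29 tested, 5 rose and 4 fell, against 6.03% higher and 2.43% lower among all genes tested. All 5 that rose (CLDN3, CLDN4, CLDN12 and CLDN15, which seal the space between cells, and OCLN, occludin) lie in the raised stretches of chromosomes 5 and 7. MARVELD3, a relative of occludin on chromosome 16, was at 6.72, 8.93, 8.32 and 9.56 CPM in GFP and at 3.32, 3.59, 3.97 and 5.69 in dnLEF1 (log2 -1.0 ± 0.17). F11R, the adhesion molecule JAM-A, was at 136 ± 3.77 and 115 ± 2.55 CPM, CRB3, a polarity protein, at 13.9 ± 1.29 and 10.2 ± 0.542, and LLGL2, another polarity protein, at 166 ± 2.51 and 139 ± 14.2. LLGL2 lost its call without GFP replicate 2 or 3 or dnLEF1 replicate 1, 3 or 4.

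Some factors that set the epithelial state were also lower. Of 12 tested 3 fell and 1, EHF, rose (0.44 ± 0.07), against 2.43% lower and 6.03% higher among all genes tested. ESRP1, a splicing factor that sets epithelial isoforms, was at 95.9, 123, 119 and 121 CPM in GFP and at 56.1, 67.6, 70.0 and 71.8 in dnLEF1 (log2 -0.79 ± 0.09). ST14, the membrane protease matriptase, was at 98.3, 85.9, 81.7 and 94.3 CPM in GFP and at 51.1, 53.4, 48.2 and 51.2 in dnLEF1 (log2 -0.82 ± 0.07). The groups are apart for both genes. ESRP2 fell by less (-0.28 ± 0.06).

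Of 10 genes for epithelial-mesenchymal transition, 4 rose (ZEB1, VIM, AXL and S100A4) and LOX fell. The shares among all genes tested were 6.03% higher and 2.43% lower. All 4 rises were small. VIM, the mesenchymal filament vimentin, was at 601, 568, 561 and 522 CPM in GFP and at 690, 710, 663 and 656 in dnLEF1, groups that do not overlap (log2 0.27 ± 0.06, edgeR adjusted p = 0.00749). Its call was lost in the fit of all 16 libraries (edgeR adjusted p = 0.0543). ZEB1, a repressor of CDH1, was at 15.6 ± 0.371 and 19.5 ± 2.28 CPM (log2 0.32 ± 0.09, edgeR adjusted p = 0.0344), and its call was lost in 7 of the 8 fits that leave out 1 library, all but that without dnLEF1 replicate 2. Leaving out GFP replicate 2 or 3 or dnLEF1 replicate 4 left 1 of the 4 rises called, and leaving out GFP replicate 1 or dnLEF1 replicate 2 or 3 left 2.

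**Figure D3:**
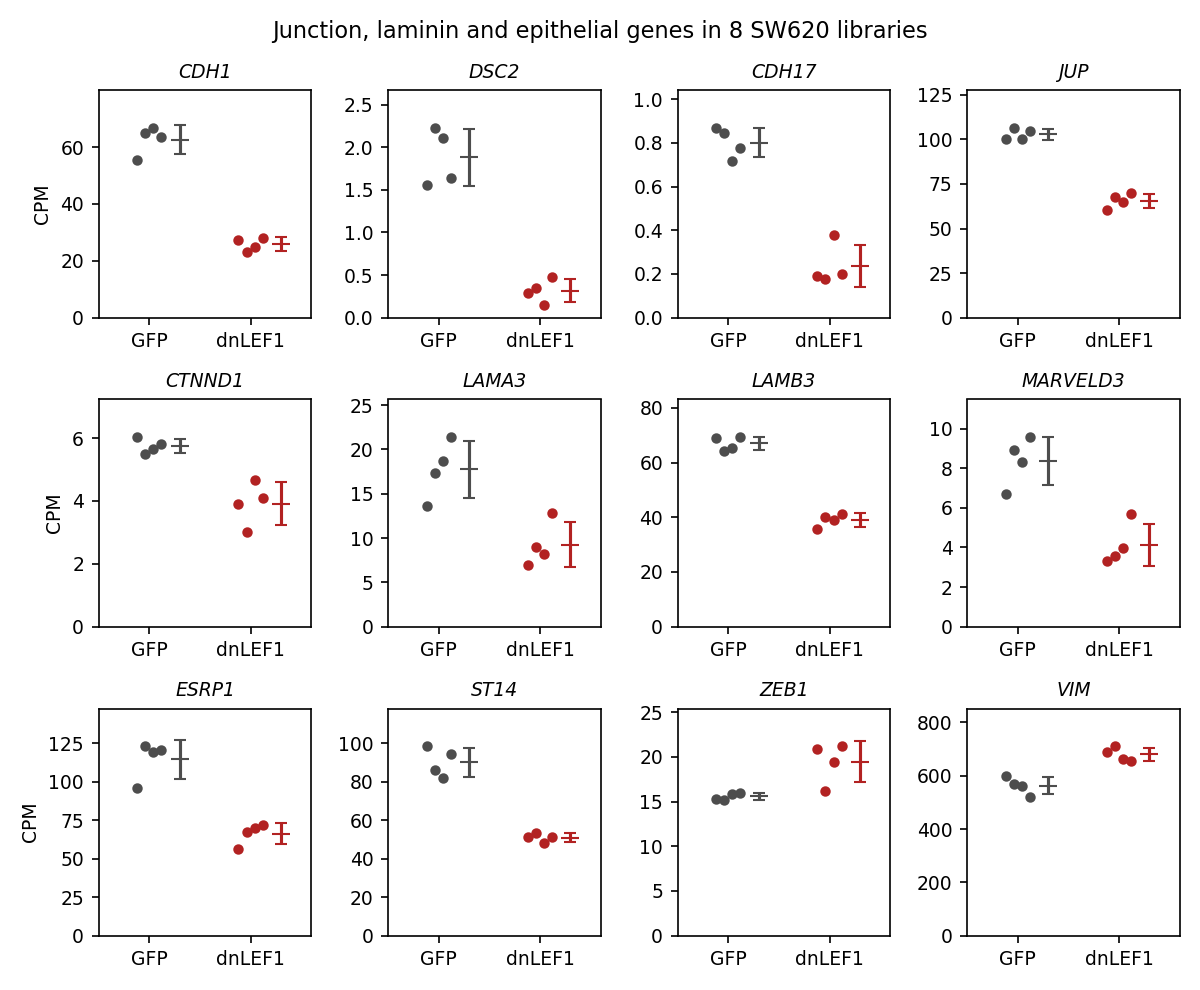
CPM of 12 genes in each of the 4 GFP (grey) and 4 dnLEF1 (red) SW620 libraries, with the mean and SD as a bar beside each group; every vertical axis starts at 0. CDH1, JUP, LAMB3, ESRP1 and ST14 separate the groups downward, while ZEB1 and VIM lie slightly higher with dnLEF1.

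LAMA3 and LAMB3, which encode chains of the laminin that anchors epithelial cells to their basement membrane, were lower. LAMB3 was at 69.0, 64.4, 65.5 and 69.2 CPM in GFP and at 35.7, 40.3, 38.9 and 41.3 in dnLEF1 (log2 -0.78 ± 0.06, edgeR adjusted p = 3.00e-06). LAMA3 was at 13.6, 17.3, 18.6 and 21.4 CPM against 6.98, 8.94, 8.21 and 12.8 (-0.93 ± 0.17). For both genes, every dnLEF1 library lay below every GFP library. LAMA5, the alpha chain of another laminin, was at 76.8 ± 2.38 and 73.6 ± 5.83 CPM, and its groups overlap.

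In the whole list of 30 matrix genes, 6 fell and 4 rose, against 2.43% lower and 6.03% higher among all genes tested. Among those that fell were LAMA3, LAMB3 and LAMC1 (-0.30 ± 0.07). COL1A1 fell from 4.18 ± 0.565 to 1.94 ± 0.48 CPM and LOX, a collagen cross-linking enzyme, from 0.585 ± 0.0998 to 0.0945 ± 0.0496 CPM. The 4 rises were THBS1 (thrombospondin 1, 0.86 ± 0.11), COL6A1 (0.52 ± 0.09), TNC (tenascin C, 0.47 ± 0.07) and LAMB1, which lies in the raised part of chromosome 7. LAMC1 lost its call without GFP replicate 2 or 3 or dnLEF1 replicate 1 or 2, and TNC in the fit of all 16 libraries.

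Of 15 tested genes of secretory and endocrine cells, 8 were higher and 7 did not pass, against 6.03% higher among all genes tested. SCG2, secretogranin II of dense-core vesicles, had the smallest p-value of the comparison. It was at 1.65, 1.73, 2.31 and 2.54 CPM in GFP and at 27.7, 28.6, 32.9 and 32.1 CPM in dnLEF1, a 14.8-fold rise (log2 3.88 ± 0.13, edgeR adjusted p = 3.80e-10). CHGB, chromogranin B of the same vesicles, was at 9.23, 7.42, 6.83 and 7.84 CPM in GFP and at 26.2, 34.3, 31.5 and 29.0 in dnLEF1 (1.95 ± 0.11). CHGB lies in the raised part of chromosome 20, and its change was 1.63 above the median of that stretch.

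The other risen members were less abundant or changed less. DCLK1, a marker of tuft cells, had 9 counts over the GFP libraries and 70 over the dnLEF1 libraries (log2 2.87 ± 0.42). AGR2, a goblet cell protein of the endoplasmic reticulum, was at 0.268 ± 0.182 and 1.31 ± 0.489 CPM, and LYZ, the lysozyme of Paneth cells and of leukocytes, at 1.19 ± 0.70 and 3.15 ± 0.498 CPM. The vesicle protein SYP (synaptophysin) was at 9.33 ± 0.425 and 12.4 ± 0.419 CPM. SCG3 and ENO2 passed with adjusted p-values of 0.0372 and 0.0263, and fits that leave out 1 library called between 6 and 7 of the 15 genes. In SW480, SCG2 (-1.37) and CHGB (-0.95) had negative log2 changes, and the lines differed by 5.25 ± 0.20 and 2.90 ± 0.17.

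Of 28 tested genes of cholesterol synthesis and uptake, 10 fell and 18 did not pass, with a median log2 change of -0.22, against 2.43% lower among all genes tested. With DESeq2, 1 of the 28 was called higher. HMGCS1, which makes HMG-CoA at the start of the pathway, was at 122, 107, 111 and 101 CPM in GFP against 75.7, 70.1, 73.9 and 69.9 in dnLEF1 (-0.61 ± 0.06, edgeR adjusted p = 3.28e-05). DHCR7, which performs a late reduction step, was at 169, 152, 135 and 153 CPM against 106, 108, 108 and 117 (-0.47 ± 0.07, edgeR adjusted p = 0.000378). The groups are apart in both genes.

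MSMO1, IDI1, FDFT1, ACAT2, NSDHL and STARD4 also fell, by log2 values between -0.45 (MSMO1) and -0.23 (ACAT2), and NSDHL lies in a stretch of the X chromosome where most genes were slightly lower. SQLE, squalene epoxidase, did not pass (log2 -0.22 ± 0.07). With all 16 libraries in 1 fit, 5 of the 28 genes were called lower. The lines differed for HMGCS1 (-0.87 ± 0.23) and DHCR7 (-0.70 ± 0.13). In lipid synthesis more widely, SCD, which makes oleate, fell by 0.34 on the log2 scale. FASN, fatty acid synthase, had a log2 change of -0.23 ± 0.06. In that list 2 of 29 genes were lower and 2 higher (ACSL5 and MLXIPL), beside 2.43% lower and 6.03% higher among all genes tested. MLXIPL lies in the raised part of chromosome 7, and its change was 0.07 above the median of that stretch. FASN lost its call without GFP replicate 2 or dnLEF1 replicate 1 or 4.

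Of 39 glycolysis and hypoxia genes, 5 fell (SLC2A3, SLC2A1, HK2, EGLN3 and DDIT4), 1 rose (ENO2) and 33 did not pass, against 2.43% lower among all genes tested. SLC2A3, the glucose transporter GLUT3, was at 49.7, 39.3, 39.8 and 38.6 CPM in GFP and at 23.2, 19.1, 19.8 and 19.7 in dnLEF1, groups that do not overlap (-1.03 ± 0.09, edgeR adjusted p = 7.86e-06). SLC2A1, the transporter GLUT1, had a log2 change of -0.27 ± 0.07, a call lost without GFP replicate 2 or 4 or dnLEF1 replicate 1, 2 or 3. HK2, a hexokinase, lost its call without GFP replicate 2, which left 3 of the 5. The call of ENO2 was lost in 7 of the 8 fits that leave out 1 library, all but that without GFP replicate 1. HKDC1, a hexokinase relative outside that list, was at 40.9, 36.3, 34.7 and 35.5 CPM in GFP and at 15.1, 14.7, 14.1 and 13.9 in dnLEF1 (-1.35 ± 0.07).

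**Figure D4:**
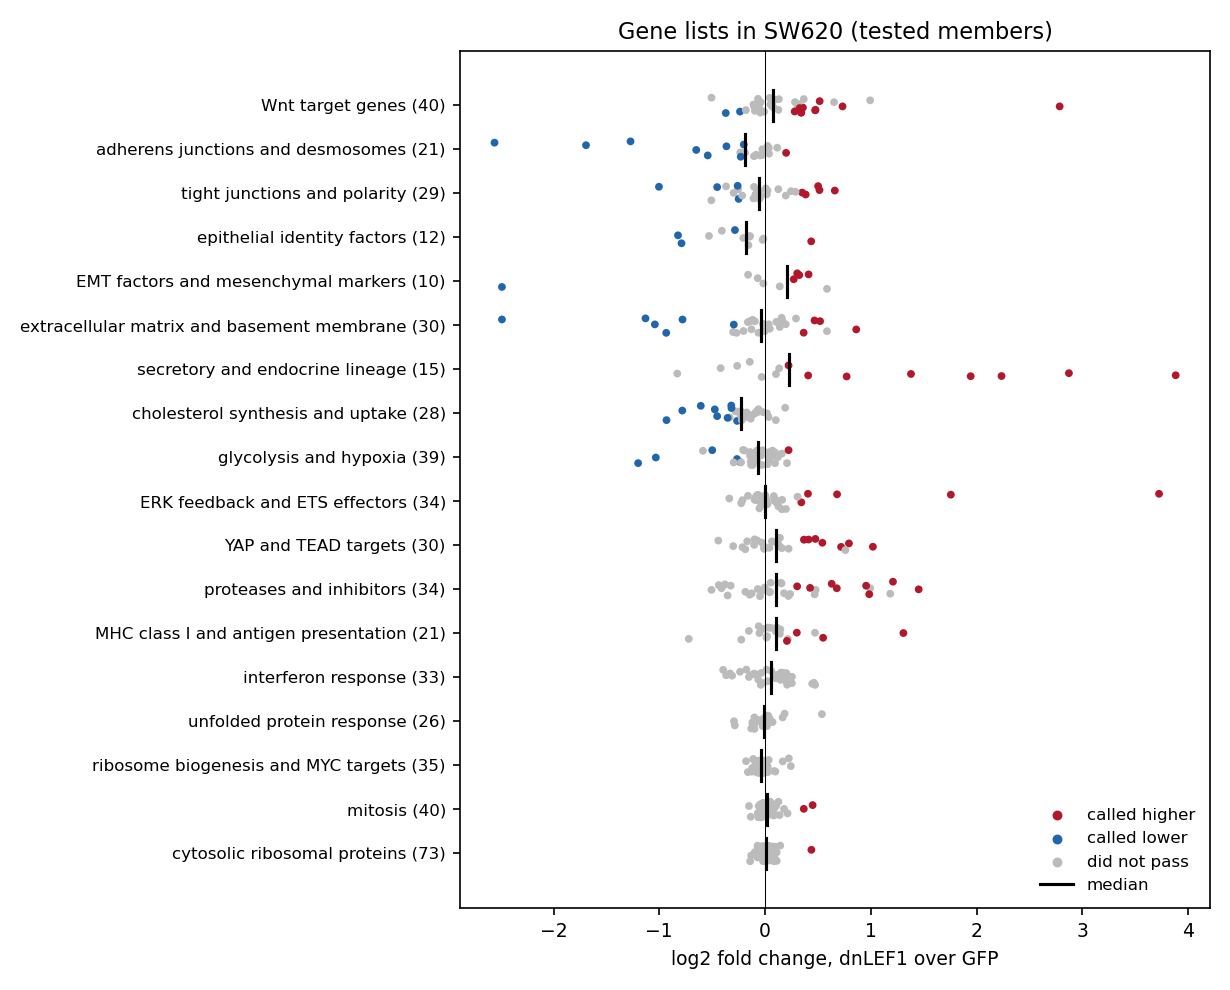
Log2 fold changes, dnLEF1 over GFP, of the tested members of 18 gene lists (number tested in parentheses), with called members in red or blue, others in grey, and the list median as a black bar. The cholesterol list has its 10 called members on the left and the secretory list its 8 on the right, while mitosis and ribosomal protein genes stay close to 0.

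In the list of 34 ERK feedback and ETS genes, 5 rose (EGFR, EREG, HBEGF, ETS2 and DUSP5) and 29 did not pass. The share higher among all genes tested was 6.03%. EGFR, the epidermal growth factor receptor, had 0.260, 0.0444, 0.154 and 0 CPM in GFP and 1.71, 0.999, 1.55 and 1.92 CPM in dnLEF1 (log2 3.73 ± 0.47, edgeR adjusted p = 0.000158). EREG, epiregulin, 1 of its ligands, was at 1.55 ± 0.136 and 5.25 ± 1.29 CPM (1.76 ± 0.19), and HBEGF, another, at 10.6 ± 1.51 and 14 ± 1.35 (0.41 ± 0.11). HBEGF lost its call without GFP replicate 2, 3 or 4 or dnLEF1 replicate 1, 2 or 3. All dnLEF1 libraries lay above all GFP libraries for these 3 genes. Of the feedback inhibitors of ERK, the phosphatase DUSP5 rose from 5.94 ± 1.19 to 9.57 ± 2.89 CPM (0.68 ± 0.19), with groups that overlap, and its call was lost without GFP replicate 1, 2, 3 or 4 or dnLEF1 replicate 2 or 4. DUSP6 (-0.07 ± 0.21) and SPRY2 (-0.07 ± 0.13) did not pass. Without GFP replicate 2, 3 or 4 or dnLEF1 replicate 2, 3 of the 5 kept the call.

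Guidance receptors and their ligands moved both ways, with 7 of 38 genes higher and 4 lower. Among all genes tested, 6.03% were higher and 2.43% lower. NRP1, a co-receptor for semaphorins and VEGF, was at 9.88, 12.6, 12.5 and 10.2 CPM in GFP and at 32.1, 33.9, 31.9 and 28.0 in dnLEF1, a 2.79-fold rise (1.48 ± 0.10, edgeR adjusted p = 3.35e-07). EFNA5, an ephrin, was at 0.208 ± 0.139 and 1.95 ± 0.473 CPM. EPHB4, SEMA3A and SEMA3D rose within the raised part of chromosome 7, and SEMA3B and ROBO2 outside it. EPHA1, EFNB1, EFNB2 and SEMA6A fell. Of the 4 falls, 1 kept the call without GFP replicate 2 or dnLEF1 replicate 1 or 3, and 2 without GFP replicate 3 or 4 or dnLEF1 replicate 2. PROM1, the stem cell surface protein CD133, was at 23, 25.2, 23 and 23.6 CPM in GFP and at 48.7, 46.7, 54.4 and 51.9 in dnLEF1 (1.09 ± 0.07, edgeR adjusted p = 2.19e-07), the smallest p of 5 rises among 23 stem and progenitor genes. Another 2 of the 23 fell, and the lowest log2 change in that list was -2.85.

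Of 30 YAP and TEAD target or partner genes 7 rose and 23 did not pass (DESeq2 called 1 lower). The share higher among all genes tested was 6.03%. Among the 7 were the partner factors TEAD2 (0.48 ± 0.10) and TEAD3, and WWTR1. The classical targets CYR61 (0.12 ± 0.24) and CTGF (0.22 ± 0.30) did not pass and varied widely between libraries. Of the 7, 4 kept the call without GFP replicate 1 or 4 or dnLEF1 replicate 1, and 3 without GFP replicate 2 or dnLEF1 replicate 3 or 4. Among 34 proteases and inhibitors 8 rose and 26 did not pass (DESeq2 called 1 lower), beside the same 6.03% of all genes. SERPINI1, neuroserpin, rose from 20.5 ± 1.48 to 40.5 ± 0.846 CPM. The inhibitors TIMP2, TIMP3 and RECK of matrix metalloproteases were also among the 8, of which 5 kept the call without dnLEF1 replicate 4.

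Of 21 genes of antigen presentation 4 rose, against 6.03% higher among all genes tested. PSMB9 and PSMB8, which encode subunits of the immunoproteasome, had log2 changes of 1.31 ± 0.26 and 0.55 ± 0.11, and TAP1, a subunit of the peptide transporter next to them on chromosome 6, of 0.30 ± 0.08. PSME1, an activator of the proteasome, is the fourth. Without GFP replicate 2 or 4 or dnLEF1 replicate 2 or 4, 2 of the 4 kept the call. No interferon response gene was called among 33 tested, in the edgeR, DESeq2 or limma voom fit, and 6 had an unadjusted edgeR p below 0.05. Some were called with the replicate number as a block, as given further on.

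Several basic processes showed few or no calls, beside 8.46% of all genes tested (6.03% higher and 2.43% lower). In lists of this length that share is only a few genes, so few calls do not show that a process was unchanged. With edgeR, none of 26 unfolded protein response genes was called (unadjusted p below 0.05 for 2), nor of 35 ribosome biogenesis and MYC target genes (4), 26 immediate-early genes (4) or 21 cyclins and CDK inhibitors (5). DESeq2 called 1 unfolded protein response gene and 1 immediate-early gene, and limma voom none in the 4 lists. With the replicate number as a block, edgeR gave calls in each of the 4 lists, as given further on. Fits without 1 library called at most 3 genes of any of them, the 3 being ribosome biogenesis genes without GFP replicate 1. The 2 of 40 mitosis genes that rose (CCNB1 and CDC25B), the 3 of 40 DNA replication genes (MCM7 and RFC2 among them), the 2 of 55 oxidative phosphorylation genes (NDUFA5 and COX7C) and the 1 of 73 ribosomal protein genes (RPS23) all lie in the raised stretches. These lists had median log2 changes between -0.05 and 0.03.

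The raised stretches hold 49.8% of all rises. A stretch was drawn where, in windows of 25 neighbouring genes, at least 23 moved the same way. There are 5 with higher levels (positions on hg38). The first covers 16.4 to 21.8 Mb of chromosome 1, the second 44.8 to 95.8 Mb of chromosome 5. Chromosome 7 holds a long one between 56.0 and 139.0 Mb and a shorter one that starts at 139.6 Mb and ends at 159.0 Mb. On chromosome 20 the first 18 Mb are raised. Of 703 genes tested in them, 400 were called higher and 4 lower, and their median log2 change was 0.35. The 5 lower stretches, on chromosomes 2, 9, 13, 19 and X, hold 173 tested genes, of which 13 were called lower and 1 higher, with a median of -0.11. Outside all stretches, 403 of 12460 genes (3.23%) were higher and 307 (2.46%) lower.

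Chromosome 7 stands out, with 263 of 661 tested genes higher (39.8%). On chromosome 5 it was 103 of 566 (18.2%) and on chromosome 20 61 of 367 (16.6%), while the other chromosomes lay between 0.78% and 5.46%. The change begins within chromosome 7. Of 223 genes up to 56.0 Mb, 13 were higher, with a median of 0.04, and of 336 between 56.0 and 139.0 Mb, 210 were higher, with a median of 0.37, or 1.30-fold. On chromosome 5, 92 of 143 genes from 44.8 to 95.8 Mb were higher with a median of 0.42, against 9 of 332 beyond it. On chromosome 20, 49 of 83 genes on the first 18 Mb were higher, against 12 of 283 on the rest.

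By library, the shift in the higher stretches of chromosomes 5, 7 and 20 was of like size in the 4 dnLEF1 libraries, and that of chromosome 1 varied more. For each library, the median over the genes of a stretch was taken relative to the mean of the GFP libraries (log2 of CPM plus 0.5). In the long stretch of chromosome 7, GFP libraries lay between -0.03 and 0.01 and dnLEF1 libraries between 0.33 and 0.37. On chromosome 5 the ranges were -0.05 to 0.05 and 0.33 to 0.43, and on chromosome 20 -0.03 to 0.05 and 0.27 to 0.31. For the stretch of chromosome 1 they were -0.04 to 0.01 and 0.12 to 0.24. The stretches were drawn from these same libraries, so the distance between the groups follows from that choice and is a description with no test. The same genes had median log2 changes in SW480 of 0.05 in the long stretch of chromosome 7, -0.17 on chromosome 5, -0.03 on chromosome 20 and -0.12 on chromosome 1. DNA copy number was not measured here, and its part in these shifts was not tested.

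**Figure D5:**
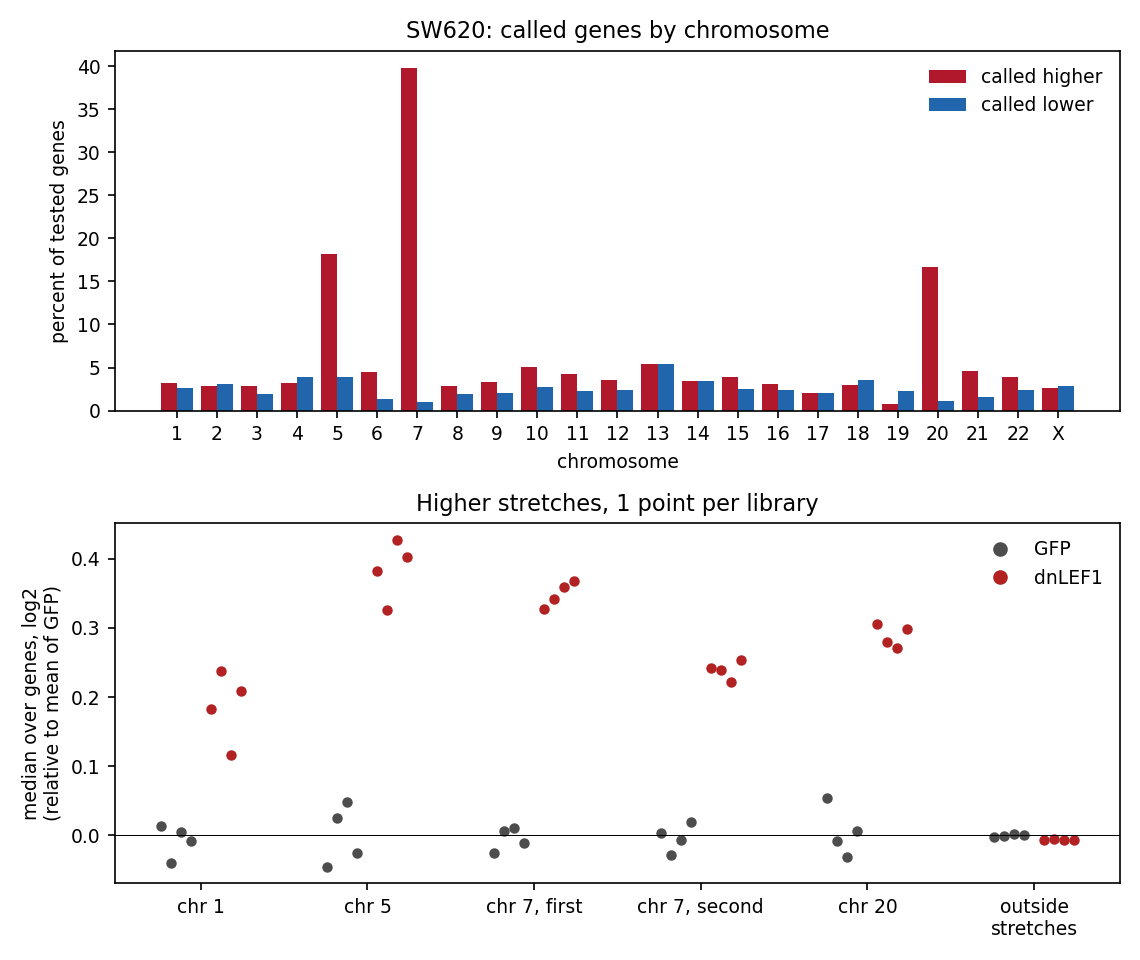
Top, the percentage of tested genes called higher (red) or lower (blue) on each chromosome; bottom, for each higher stretch, the median over its genes of the log2 level relative to the mean of the GFP libraries, 1 point per library (grey GFP, red dnLEF1). Chromosome 7 reaches 39.8%, and in the stretches, which were drawn from these libraries, the dnLEF1 points lie above the GFP points.

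Some genes in the stretches changed far beyond their neighbours. ISM1, a secreted protein on chromosome 20, was at 0.477, 0.311, 0.257 and 0.344 CPM in GFP and at 6.22, 5.23, 5.11 and 4.00 in dnLEF1, 3.54 above the median of its stretch on the log2 scale. IQGAP2, a scaffold of the cytoskeleton on chromosome 5, was 1.97 above and TFR2, transferrin receptor 2, on chromosome 7, 1.24 above. FOXP2, a transcription factor on chromosome 7, was at 3.98 ± 0.602 and 8.70 ± 0.92 CPM. PRSS2, a trypsinogen in the second stretch of chromosome 7, went the other way, from 8.93, 5.33, 3.80 and 3.27 CPM to 1.90, 1.88, 0.909 and 0.761 CPM (-2.02 ± 0.35). It belongs to a family of near-identical copies, so its counts are uncertain.

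The largest rises outside the stretches include genes with next to no reads in GFP. VAT1L, a relative of the vesicle protein VAT1, had 3 counts over the 4 GFP libraries and 558 over the 4 dnLEF1 libraries, a ratio of 184 (95% exact interval 62.7 to 897, counting error only). RNF182, a ubiquitin ligase, had 3 and 440 counts (ratio 145, interval 49.4 to 707), BTBD11 2 and 268 (133, 36.4 to 1102) and MGMT, which repairs alkylated guanine, 2 and 60 (29.7, 7.88 to 251). GZMB, the protease granzyme B, had no count in GFP and 189 in dnLEF1, and ADAMTS19 none and 71. Against a floor of 3 counts over the GFP group they were at least 62.4-fold and at least 23.5-fold higher. These 6 are all the called genes with 3 or fewer counts in a group, and those other than VAT1L were singled out after their values were seen. In all 6 the low group was GFP.

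KLRC2, a receptor gene of natural killer cells, was at 3.03, 2.40, 2.41 and 2.15 CPM in GFP and at 14.6, 13.7, 16.2 and 16.4 in dnLEF1 (2.61 ± 0.12, edgeR adjusted p = 1.42e-08). Its neighbour KLRC3, a near copy, had a log2 change of 2.25 ± 0.33, and reads of the pair may be split. Of the 14 leukocyte markers, 6 had no count in any of the 8 libraries, 2 (LYZ and CD68) reached 1 CPM, and NKG7 had 5 counts over the 8 libraries. GALNT10, which starts O-linked sugar chains, was at 9.10, 10.3, 10.5 and 12.1 CPM against 38.3, 39.4, 42.9 and 46.8 (2.00 ± 0.09). GJC1, a gap junction protein, rose 3.54-fold, LIPC, hepatic lipase, 4.72-fold, the cytidine deaminase APOBEC3G 5.17-fold, MUM1L1 4.23-fold and F13A1, a chain of coagulation factor XIII, 5.66-fold. For each of these the groups do not overlap, which was a condition for naming a gene among the largest rises. Outside the stretches, the groups did not overlap for 1365 of 12460 tested genes.

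ALCAM, whose promoter is printed above, showed the largest fall that met the naming rule, from 11.4, 12.2, 15.8 and 12.4 CPM to 2.14, 1.76, 1.85 and 1.40 CPM (-2.85 ± 0.15, edgeR adjusted p = 6.01e-08). In SW480 it went the other way, by 2.80 on the log2 scale, and the difference between the lines was -5.65 ± 0.21 (edgeR interaction adjusted p = 5.02e-14). AMIGO2, another adhesion molecule, was lower in SW620 (68.4 ± 2.48 to 34.9 ± 2.65 CPM) and had a log2 change of 3.02 in SW480. NTRK2, the receptor of brain-derived neurotrophic factor, fell 2.80-fold, SORCS2, a sorting receptor, 3.38-fold, CAPN6, a calpain relative without protease activity, 3.82-fold, FGD5, an exchange factor for CDC42, 2.82-fold, TC2N 2.50-fold, RIN3 2.50-fold and ZDHHC2, a palmitoyltransferase, 2.33-fold. The fall of NTRK2, SORCS2, CAPN6, FGD5 and TC2N in SW620 has a counterpart in SW480, where their log2 changes lay between -3.02 (NTRK2) and -1.91 (FGD5).

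Some ion channel and transporter genes were among the falls. Of 30 tested 3 fell and 2 rose, with a median log2 change of -0.0058. The shares among all genes tested were 2.43% lower and 6.03% higher. KCNH2, in the second raised stretch of chromosome 7, had the highest change of the list (log2 0.57). SCNN1A, a subunit of the epithelial sodium channel, was at 124, 134, 130 and 123 CPM in GFP and at 66.8, 70.0, 72.0 and 71.1 in dnLEF1 (-0.87 ± 0.05, edgeR adjusted p = 2.13e-07). SLC9A3, the sodium-proton exchanger of the brush border, had 76 counts over GFP and 8 over dnLEF1 (-3.20 ± 0.51). The groups are apart for both. FGF9, a growth factor, was at 3.14 ± 0.379 and 0.782 ± 0.223 CPM.

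RNA45S5, the ribosomal RNA precursor, is listed among the falls, but 1 library weighs on its size. It was at 49.7, 43.3, 158 and 52.4 CPM in GFP and at 9.26, 10.1, 13 and 15.2 in dnLEF1, and the high value is that of GFP replicate 3. Its log2 change was -2.65 ± 0.36 with that library and -2.01 without it, a fall that passed in both. Other structural RNAs were high in that library alone and did not pass. RMRP was at 47.0 CPM there and at 0.36 to 0.904 CPM in the other 7 libraries, and RN7SK at 67.3 against 1.76 to 2.90 CPM. RPPH1 was at 55.9 CPM against 0.761 to 1.33 CPM. These RNAs carry no long poly(A) tail and have near-identical copies, so poly(A) RNA counts of them are uncertain.

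Set gene by gene against SW480, the called genes of SW620 divided. Of the 804 higher genes, 283 were called higher in SW480 too, 208 were called lower there and 313 were not called, and for 515 the effect differed between the lines, against 28.5% of all genes in that fit. Of the 324 lower genes, 171 were called lower in SW480 and 53 higher, 100 were not called, and 188 differed. These genes were selected by their SW620 change, which is also part of the difference tested. A share above that of all genes follows in part from this choice and is no separate result. Of the 804 higher genes, 400 lie in the raised stretches. Of the 13330 genes in both fits, 22.9% were called higher and 26.1% lower in SW480. The widest differences among genes called in SW620 were those of SEMA3D (10.10 ± 0.63), ROBO2 (9.86 ± 0.60), FOXP2 (8.12 ± 0.81) and AGMO (8.01 ± 0.64), which fell by more than 6 log2 units in SW480. On the other side were ALCAM, PRSS2, AMIGO2 (-3.99 ± 0.16) and PXDN (-3.98 ± 0.39), a peroxidase of the basement membrane. The SW620 call was lost for SEMA3D without GFP replicate 2 or dnLEF1 replicate 3 or 4, for ROBO2 without GFP replicate 3 or dnLEF1 replicate 3 or 4, and for PXDN without GFP replicate 2, 3 or 4 or dnLEF1 replicate 1, 2 or 4.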

How the data were processed

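Polyadenylated RNA was sequenced from 16 libraries, of which the 8 of SW620 were compared and the 8 of SW480 entered the test between lines. The authors deposited raw read counts for each gene symbol, made with Trimmomatic, TopHat2, HTSeq and DESeq2 on hg38, per the submitters' processing notes. Tool versions, gene models and strandedness: not given in the sources used here. Overlapping and antisense genes may therefore share reads. A file holds 26485 symbols and 5 summary lines. Those lines held 21.2% to 24.3% of the total in 7 SW620 libraries and 50.5% in GFP replicate 3, and stayed out of library sizes and tests. Libraries of 1 group differed by more than counting noise (chi-square per degree of freedom from 4.37), and each was kept as a sample.

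The quasi-likelihood test of edgeR 4.0.16 (R 4.3.3, TMM, filterByExpr) was used, with genes called at a Benjamini-Hochberg adjusted p below 0.05, and SW620 was set against SW480 as an interaction over 16 libraries. The standard error is the absolute log2 change over the square root of F. CPM use effective library sizes, except the sums over cell type markers, which use total gene counts. Genes with 1 to 3 counts in a group have a 95% exact Poisson interval, and those with none a floor of 3 counts over the group. DESeq2 1.42.0, limma voom 3.58.1, DESeq2 size factors, no filter, a replicate block, leaving out the stretch genes and leaving out each library were alternatives. The edgeR test was checked on simulated counts of independent genes with the same dispersion. That check does not cover genes that shift together, as in the stretches, or spread shared by replicate number.

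Members and gene lists were chosen with earlier results of these data known. Genes are named by a rule: LEF1, the 12 largest rises and falls with a mean of at least 5 CPM in a group and no overlap, up to 3 called members with the smallest p per list and stretch, 8 fixed genes, and the 4 widest differences from SW480 each way. Members named beyond it make up a count. Single genes that did not pass (such as LAMA5, SQLE, DUSP6, SPRY2, CYR61 and CTGF), genes far from their stretch, structural RNAs and the genes described with few counts were picked after their values were seen. Stretches use genes with a mean log2 CPM above 2, placed by the RefSeq table (95.5% of symbols). Promoters are the first listed per symbol in that table, 250 bases before to 50 after the start. Some genes the rule takes are not reported here.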

Additional observations from a re-analysis of the deposited data

Results flagged for a closer look

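A sample stood apart from the other 3 of its group in 3 measures (Dixon's test at the 95% level, which chance passes in about 1 group of 20). In GFP replicate 3, 39.4% of the reads aligned to several places, and RNA45S5 was at 158 CPM. GFP replicate 4 had 16486 genes with a count, above the other 3 GFP libraries. RNA45S5 was the only gene of 37 screened in which a library stood apart in this way.

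The effect of dnLEF1 differed between SW620 and SW480 for 4248 of 14926 genes. Among named genes, the log2 change in SW620 minus that in SW480 was above 0 for SEMA3D (10.10), ROBO2 (9.86), FOXP2 (8.12), AGMO (8.01), VAT1L (7.59), KLRC2 (6.10), SCG2 (5.25), ISM1 (4.87), LGR5 (3.62), MUM1L1 (3.56), NKD1 (3.11), AXIN2 (2.92), CHGB (2.90), F13A1 (2.83), APOBEC3G (1.92), NTRK2 (1.54), GALNT10 (1.36), TC2N (1.33), CCND1 (1.19), HKDC1 (0.88), GJC1 (0.76) and LEF1 (0.53). NTRK2, TC2N and HKDC1 fell in both lines, by more in SW480. The difference was below 0 for ALCAM (-5.65), PRSS2 (-4.05), AMIGO2 (-3.99), PXDN (-3.98), RNA45S5 (-3.00), CDH1 (-2.83), RIN3 (-2.47), ZDHHC2 (-0.90) and VIM (-0.34). VIM had a positive log2 change in both lines, larger in SW480, and its SW620 call was lost in the fit of all 16 libraries. ALCAM, AMIGO2, CDH1, RIN3, PXDN and PRSS2 fell in SW620 and rose in SW480.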

How the results depend on the processing

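The 804 higher genes were between 788 and 872 with DESeq2 size factors, DESeq2, limma voom, no filter or a fit of all 16 libraries, and the 324 lower genes between 319 and 437. Leaving out each library in turn gave 593 to 810 higher and 217 to 392 lower genes. Without the genes of the stretches in the fit, 357 were higher and 239 lower. Rises in the 5 higher stretches (400) ranged from 318 to 402 without 1 library, and genes differing between the lines (4248) from 3614 to 4545. The log2 change of LEF1 stayed between 2.72 and 2.87.

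The shared replicate numbers were not taken as pairs, because the labels state no pairing. Deviations from the group means correlated at 0.35, -0.02, 0.20 and 0.23 for numbers 1 to 4. In addition, 3 of 4 dnLEF1 libraries correlated best with the GFP library of their own number. Libraries of the same number may therefore share some spread, which the main fit does not model. With the replicate number as a block, 1149 genes were higher and 676 lower, 484 rose in the stretches, 4835 differed between the lines, and LEF1 was at 2.79. Of the 1128 genes called without it, 1127 remained called with the block. The block also gave calls in lists where the edgeR fit without it gave none: interferon response (3 lower, 1 higher), ribosome biogenesis (3 higher, 1 lower), cyclins (2 higher, 1 lower), immediate-early (2 higher, 1 lower) and unfolded protein response (1 each way).

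Of 230 called genes followed one by one, 155 kept the call under every alternative and 75 lost it under at least 1, and none changed sign. Most calls were lost without GFP replicate 2 (56) or dnLEF1 replicate 1 (44), with 3 each lost with DESeq2 or its size factors and none with the block. The fit of all 16 libraries lost 36 calls, among them VIM, TNC, SMOC2, IDI1 and CDH17. Leaving out the stretch genes lost 21, and limma voom and no filter lost 7 each. DESeq2 size factors moved the median log2 change of all genes by -0.0058. Low counts limit DSC2, CDH17, EGFR, DCLK1, LOX and SLC9A3.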

Other observations

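Brush border genes, which build the microvilli of enterocytes, were lower in part. Of 13 tested 4 fell and 1 rose, against 2.43% lower and 6.03% higher among all genes tested. The highest log2 change of the list was 1.74. VIL1 (villin) was at 374, 360, 333 and 336 CPM in GFP and at 289, 295, 294 and 289 in dnLEF1 (log2 -0.27 ± 0.05), CDHR2 (protocadherin 24) at 19.8 ± 1.77 and 14.4 ± 1.90, ESPN (espin) at 21.6 ± 3.09 and 14.9 ± 2.10, and ALPP (placental alkaline phosphatase) at 1.78 ± 0.242 and 0.743 ± 0.0423 CPM. The groups do not overlap for these 4 genes, as for 1365 of 12460 tested genes outside the stretches. CDHR2 lost its call in the fit of all 16 libraries. ALPP has near-identical relatives, so its counts are uncertain.

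Notch genes moved both ways, with 4 of 28 higher and 3 lower. The shares among all genes tested were 6.03% higher and 2.43% lower. NOTCH2, a receptor, was at 1.99, 1.29, 1.90 and 1.59 CPM in GFP and at 4.75, 3.35, 3.71 and 3.24 in dnLEF1 (1.15 ± 0.19), while NOTCH1, another, had a log2 change of -0.26 ± 0.06, a call lost without GFP replicate 2 or dnLEF1 replicate 1 or 4. LFNG, which adds sugars to Notch receptors, fell by 0.32 on the log2 scale. The ligand JAG1 (0.51 ± 0.11) and DTX2 rose within raised stretches, and MAML3, a co-activator, outside them. HEYL, a Notch target, was called lower, but GFP replicate 1, at 0.433 CPM, lay among the dnLEF1 libraries, and the call was lost without GFP replicate 2 or 3.

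Of 38 TGF-beta and BMP genes tested, 2 rose and 2 fell, against 6.03% higher and 2.43% lower among all genes tested. The ligands TGFB2 (1.02 ± 0.29) and BMP5 (0.40 ± 0.11) rose, but TGFB2 lost its call without any 1 library other than dnLEF1 replicate 2, and BMP5 without GFP replicate 1, 2 or 3 or dnLEF1 replicate 2, 3 or 4. BAMBI, a decoy receptor, was at 106, 115, 115 and 114 CPM in GFP and at 76.1, 88.6, 78.1 and 79.4 in dnLEF1 (-0.48 ± 0.06), and INHBB, a subunit of activin B, at 221 ± 31.6 and 172 ± 6.00 CPM. PMAIP1, the cell death protein NOXA, rose from 29.7 ± 2.53 to 45.3 ± 2.13 CPM, the only call among 30 p53 target and apoptosis genes. CTSH, a lysosomal protease, was at 1.93 ± 0.354 and 6.44 ± 0.999 CPM. PPARGC1A, a co-activator of mitochondrial genes, had 61 counts over GFP and 13 over dnLEF1 (-2.21 ± 0.42), and in SW480 its log2 change was 2.22 (difference between lines -4.43 ± 0.47).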
